A study of Mus musculus with 19 samples.

Results

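The genes described here are 33 genes of the interferon response and of cytosolic DNA sensing, taken by their symbols from the 53558 genes of the expression files. They were measured by RNA-seq in neoplastic cells sorted from lung tumors of mice, and 31 of the 33 had enough counts to be tested, while *Mx1* and *Rsad2* did not. All mice carried *R26* LSL-tdTomato and *H11* LSL-Cas9 beside the allele that drives the tumors, so that a virus with Cre starts a tumor and turns on both the label and Cas9 in the same cell. The mice received Lenti-sgInert/Cre with control sgRNAs named sgNeo1, sgNT1 and sgNeo2 (7 libraries), Lenti-sgCebpa/sgCebpb/sgCebpd/Cre, which targets 3 genes for C/EBP transcription factors (7 libraries, written sgCebpa/b/d), or Lenti-sgLkb1/Cre, which targets the kinase gene *Lkb1*, listed as *Stk11* (5 libraries). Tumors developed for 17 weeks, and cells positive for CD45, CD31, F4/80 or Ter119 were excluded by the sort. How many of the sorted cells carried edited alleles was not analysed here.

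Interferons are secreted proteins that signal through cell surface receptors, JAK kinases and STAT and IRF transcription factors to switch on a large set of antiviral genes. DNA in the cytosol is sensed by cGAS, whose cyclic dinucleotide product activates STING, here listed as *Tmem173*, and STING leads through IRF3 to the transcription of type I interferon genes. RNA sensors such as MDA5 feed into the same response. Interferon-stimulated genes carry a DNA element, the ISRE, that is bound by a complex that holds STAT2 and IRF9, and many of them also respond to IRF1 and to interferon gamma through the GAS element.

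Several libraries stand apart in ways that touch these genes. Most library titles carry a number, read here as that of an animal. It starts with ZR in 4 of the sgInert titles, and with MT in the 3 others, in 4 titles of sgCebpa/b/d and in 3 of sgLkb1. No number is given for the remaining 3 libraries of sgCebpa/b/d and 2 of sgLkb1. MT1205 is shared by 3 of the sgCebpa/b/d libraries (replicates 1, 3 and 4), MT1136 by 2 of the sgLkb1 libraries (replicates 2 and 3) and MT1161 by 2 of the sgInert libraries. The n below is the number of libraries. It is larger than that of animals if libraries with one number came from 1 animal, which the labels do not say. In the sgCebpa/b/d group the 3 libraries without a number are male and the 4 with one are female, so that sex and title series cannot be told apart there. All 5 sgLkb1 libraries are female, while sgInert has 4 male and 3 female libraries, so that sgLkb1 against sgInert is not balanced by sex. *Ptprc*, which encodes the CD45 antigen excluded by the sort, stood at 32.6, 32.5 and 44.3 CPM (counts scaled to the library size) in the 3 unnumbered sgCebpa/b/d libraries and at 42.7 and 7.72 CPM in the 2 unnumbered sgLkb1 libraries. It was at most 4.66 CPM in the other 14 libraries. The summed level of 19 immune markers was 60.1 to 103 CPM in the unnumbered libraries and 12.8 to 52.7 CPM in the others. The summed level of 12 alveolar type II epithelial markers, of a cell type held to be a main source of such tumors, was 34046 to 72152 CPM over all libraries. It was 59525 to 72152 CPM in sgInert, 39148 to 51278 CPM in sgLkb1, 34046 to 43206 CPM in the unnumbered sgCebpa/b/d libraries and 55061 to 62004 CPM in the numbered ones. *Stk11* was at 7.53 to 12.5 CPM in the sgLkb1 libraries and at 19.5 to 22.9 CPM in sgInert, a log2 fold change of -1.24 with a standard error (SE) of 0.17 and an adjusted p of 0.000107. CPM were computed on TMM-normalized library sizes, and the library totals ran from 2760731 to 9944134 estimated counts.

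Compared by TPM, a transcript abundance corrected for length, the members spanned a wide range of levels. The highest over the 19 libraries were *Ifi27*, a small interferon-induced membrane protein, with 91.3 ± 49.7 TPM (mean and SD), *Samd9l*, an antiviral and growth-restraining protein, with 60.3 ± 16.9 TPM, and *Lgals3bp*, a secreted galectin-binding glycoprotein, with 51.6 ± 23.4 TPM. The lowest were *Rsad2*, which encodes viperin, with 0.148 ± 0.237 TPM and *Mx1*, a dynamin-like GTPase, with 0.316 ± 0.328 TPM. *Tmem173* lay in between with 10.9 ± 3.24 TPM.

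The first question was whether the genes differed between the virus groups. Against sgInert, 3 of the 31 members were higher in sgCebpa/b/d at an adjusted p under 0.05, and none was lower. These were *Ifit2*, *Oasl2* and *Parp14*. Of all 13986 genes tested, 4.73% were called higher and 5.36% lower in this comparison. The log2 fold change was positive in 26 of 31 members, with a median of 0.37, while the median over all genes was 0.02. In sgLkb1 against sgInert, 1 member was higher (*Ifit2*) and none was lower, where 2.81% of all genes were called higher and 2.97% lower. There 23 of 31 members were positive, with a median of 0.26 against -0.01 for all genes. With sex as a covariate the median turned to -0.05, with 14 of 31 positive. As sgLkb1 has no male libraries, that fit takes its sex effect from the other groups. In sgCebpa/b/d the males are the unnumbered libraries, so that the fit cannot tell sex from title series. In sgCebpa/b/d against sgLkb1, 1 member was higher (*Samd9l*), and none was lower, where 2.83% of all genes were called higher and 3.12% lower. No member had libraries of a targeted group all above or all below those of sgInert, which 1.28% of all genes did as higher and 2.09% as lower in sgCebpa/b/d, and 2.15% and 2.00% in sgLkb1. The targeted groups overlapped each other for every member tested, where 2.22% of all genes lay higher and 2.87% lower in sgCebpa/b/d. All 3 comparisons draw on the same fit, and the first 2 share the sgInert libraries. Markers of other cell types also moved between the groups. Summed levels of 8 fibroblast markers were 11.3 to 142 CPM in sgInert, 58.7 to 264 CPM in sgCebpa/b/d and 79.3 to 263 CPM in sgLkb1, and those of 8 endothelial markers 11.4 to 51.9, 21.9 to 297 and 59.2 to 218 CPM. Their part in the values of the interferon genes was not tested. In bulk RNA, more RNA per cell and more cells that express a gene cannot be told apart.

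**Figure D1:**
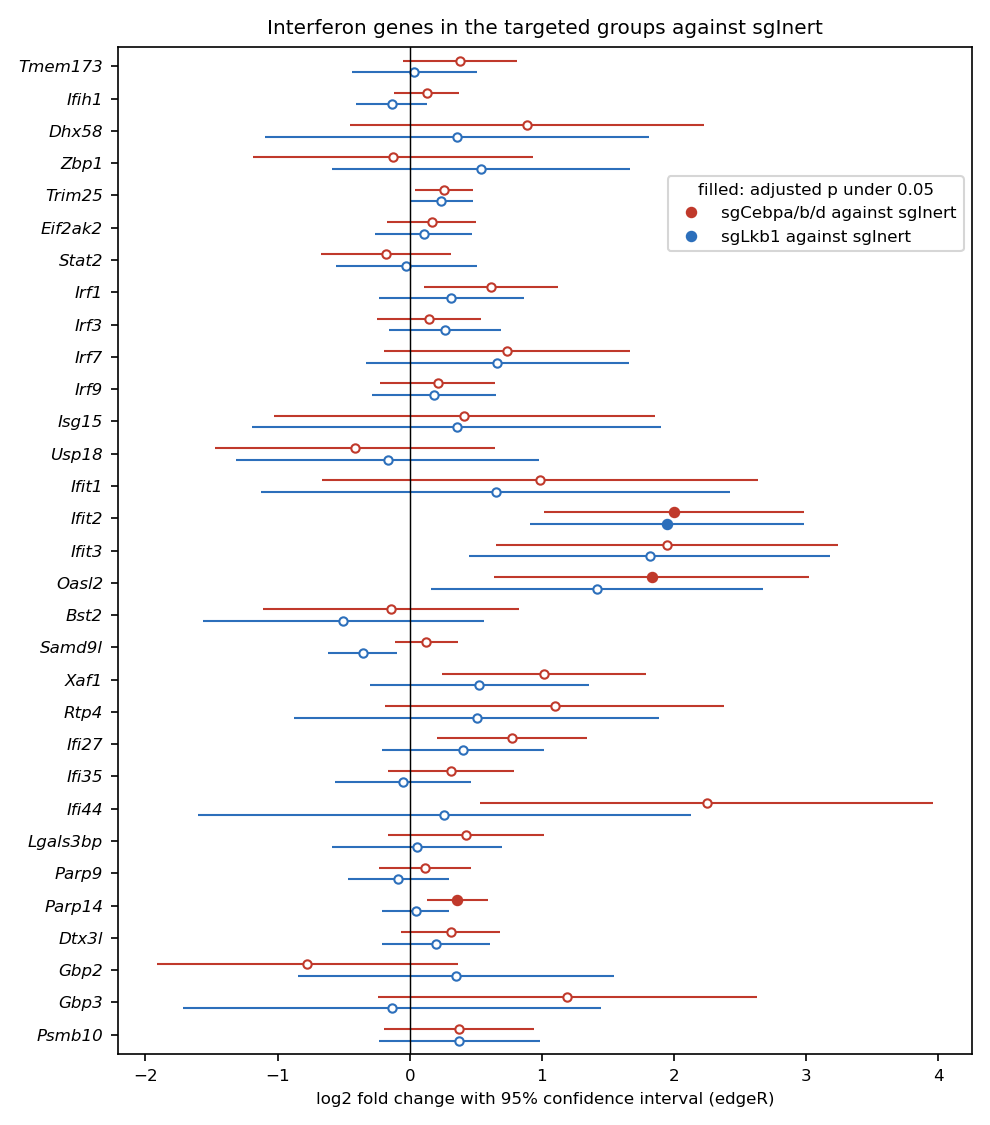
Log2 fold change (x axis) of each of the 31 tested genes (y axis, in order of role) in sgCebpa/b/d (red) and sgLkb1 (blue) against sgInert, with 95% confidence intervals. Filled points passed an adjusted p of 0.05, and they are *Ifit2* in both groups and *Oasl2* and *Parp14* in sgCebpa/b/d.

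The sensors came first in the order of the pathway. *Tmem173* (STING), the adaptor at the centre of cytosolic DNA sensing, had a lowest, median and highest level of 8.38, 15.3 and 23.6 CPM in sgInert and of 14.7, 18.5 and 29.3 CPM in sgCebpa/b/d. In the sgLkb1 libraries it was at 11.7, 16.0, 16.7, 18.9 and 15.4 CPM (replicates 1 to 5). The groups overlapped over most of their range. Its log2 fold change was 0.38 (95% confidence interval -0.05 to 0.81, adjusted p = 0.286) in sgCebpa/b/d and 0.04 (-0.44 to 0.51, adjusted p = 0.96) in sgLkb1. The other sensors, *Ifih1* (MDA5), *Dhx58* (LGP2), *Zbp1*, *Trim25* (a ubiquitin ligase of RNA sensing) and *Eif2ak2* (PKR, a kinase activated by double-stranded RNA), did not pass the test in either group. Their log2 fold changes lay between -0.13 and 0.89 in sgCebpa/b/d and between -0.14 and 0.54 in sgLkb1.

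Of the 5 transcription factors, none passed the test. In sgCebpa/b/d the log2 fold changes were 0.61 (SE 0.24, adjusted p = 0.122) for *Irf1* and 0.74 (SE 0.45, adjusted p = 0.348) for *Irf7*, the factor that amplifies interferon production. *Irf3*, *Irf9* and *Stat2* lay between -0.18 and 0.21. In sgLkb1 all 5 were between -0.03 and 0.66. *Isg15*, a ubiquitin-like modifier, and *Usp18*, the protease that removes it and restrains interferon signaling, were at 0.41 and -0.41 in sgCebpa/b/d and at 0.36 and -0.17 in sgLkb1, with SEs of 0.51 to 0.75, and neither passed. Both had few reads (0 to 32 counts per library).

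Of the 12 antiviral effectors tested, 2 passed the test in sgCebpa/b/d and 1 in sgLkb1. In all, 11 were positive in sgCebpa/b/d (median log2 fold change 1.00) and 9 in sgLkb1 (median 0.45). Without the libraries numbered MT1205 6 of 12 were positive in sgCebpa/b/d (median 0.04), and without those numbered MT1136 5 of 12 in sgLkb1 (median -0.05). *Ifit2*, an RNA-binding protein of the IFIT family (chr19:34550694-34576419, GRCm38), had a lowest, median and highest level of 0.903, 1.95 and 6.10 CPM in sgInert and of 2.25, 9.89 and 16.8 CPM in sgCebpa/b/d. The sgLkb1 libraries were at 4.85, 17.7, 14.4, 3.83 and 6.41 CPM. Of the 7 sgCebpa/b/d libraries 6 were above every sgInert library, and replicate 2 was not. The log2 fold change was 2.00 (SE 0.47, adjusted p = 0.00754) in sgCebpa/b/d and 1.95 (SE 0.50, adjusted p = 0.0222) in sgLkb1. The second call was lost without sgLkb1 replicate 2 (1.59, adjusted p = 0.0873) or replicate 3 (1.74, adjusted p = 0.0615), and with the libraries of 1 number summed (1.63, adjusted p = 0.123).

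*Ifit3*, its neighbor in the same gene cluster (chr19:34583531-34588731), was at 0, 0.387 and 2.73 CPM in sgInert, at 2.08, 3.30 and 9.32 CPM in sgCebpa/b/d, and at 3.58, 6.90, 4.85, 1.18 and 1.60 CPM in the sgLkb1 libraries. Its log2 fold changes of 1.95 (SE 0.62, adjusted p = 0.0502) and 1.82 (SE 0.66, adjusted p = 0.117) missed the threshold. The IFIT genes are close copies of one another, and RSEM divides shared reads between them by a model. *Oasl2*, a protein of the oligoadenylate synthetase family (chr5:114896936-114912234), was at 0.754, 3.03 and 8.53 CPM in sgInert and at 1.84, 9.81 and 29.7 CPM in sgCebpa/b/d. In the sgLkb1 libraries it stood at 12, 19.8, 10.2, 7.28 and 4.95 CPM. Its log2 fold change was 1.83 (SE 0.57, adjusted p = 0.0445) in sgCebpa/b/d and 1.42 (SE 0.61, adjusted p = 0.2) in sgLkb1. With each of the 19 libraries left out in turn, the call in sgCebpa/b/d held in 7 fits (log2 fold change 1.55 to 2.12), and with the libraries of 1 number summed it was lost (1.42, adjusted p = 0.182).

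The promoters of the members were searched for the elements named above. RefSeq promoters of 300 bases (250 before and 50 after the start, GRCm38.p6) were at hand for 24 of the 33 genes, as 28 promoters. The letters searched were GAAANNGAA, a core of the ISRE, on both strands (TTCNNTTTC on the other), and TTCNNNGAA, the GAS, which reads the same on both strands. The ISRE core was in 13 of the 28 member promoters (46.4%) and in 8.56% of all 32851 promoters. The GAS was in 5 of 28 (17.9%) and in 8.30% of all. The upstream 250 bases are shown for the members with at least 2 ISRE cores there, and for *Ifit2* and *Oasl2*, the called effectors, in lower case with the matched letters in capitals. *Ifit1*, *Ifit3* and *Isg15* have 3 matches each, of which 2 overlap in *Ifit1* and all 3 in *Isg15*, in a run that begins 78 bases before the start. *Bst2* has a GAS that overlaps the first of its 2 ISRE cores, *Ifit2* has a GAS 241 bases before its start and no ISRE core, and *Oasl2* has neither.
Ifit1, chr19:34640639-34640888, plus strand: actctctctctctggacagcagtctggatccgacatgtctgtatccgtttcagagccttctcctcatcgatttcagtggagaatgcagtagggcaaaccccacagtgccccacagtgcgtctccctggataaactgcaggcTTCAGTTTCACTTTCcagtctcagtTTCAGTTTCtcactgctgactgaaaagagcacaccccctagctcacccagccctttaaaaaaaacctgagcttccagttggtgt
Ifit3, chr19:34583279-34583528, plus strand: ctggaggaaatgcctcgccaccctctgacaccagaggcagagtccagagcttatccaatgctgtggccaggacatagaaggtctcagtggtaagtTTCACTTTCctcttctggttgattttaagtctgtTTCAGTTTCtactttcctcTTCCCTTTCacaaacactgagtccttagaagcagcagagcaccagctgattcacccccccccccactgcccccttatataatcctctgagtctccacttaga
Isg15, chr4:156200819-156201068, minus strand: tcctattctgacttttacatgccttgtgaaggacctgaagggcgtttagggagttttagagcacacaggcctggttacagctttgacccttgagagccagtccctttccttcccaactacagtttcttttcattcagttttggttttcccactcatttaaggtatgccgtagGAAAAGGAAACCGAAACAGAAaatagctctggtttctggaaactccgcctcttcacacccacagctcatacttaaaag
Bst2, chr8:71537473-71537722, minus strand: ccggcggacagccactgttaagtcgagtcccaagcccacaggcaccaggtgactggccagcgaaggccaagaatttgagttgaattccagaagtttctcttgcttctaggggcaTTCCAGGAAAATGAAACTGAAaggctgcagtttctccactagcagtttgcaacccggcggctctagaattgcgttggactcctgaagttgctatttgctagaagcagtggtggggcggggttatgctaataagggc
Gbp3, chr3:142559794-142560043, plus strand: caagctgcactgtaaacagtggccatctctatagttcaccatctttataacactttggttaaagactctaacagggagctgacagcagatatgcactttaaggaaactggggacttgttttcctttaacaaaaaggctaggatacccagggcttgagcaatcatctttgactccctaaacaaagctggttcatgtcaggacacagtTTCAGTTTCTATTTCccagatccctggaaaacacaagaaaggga
Ifit2, chr19:34550444-34550693, plus strand: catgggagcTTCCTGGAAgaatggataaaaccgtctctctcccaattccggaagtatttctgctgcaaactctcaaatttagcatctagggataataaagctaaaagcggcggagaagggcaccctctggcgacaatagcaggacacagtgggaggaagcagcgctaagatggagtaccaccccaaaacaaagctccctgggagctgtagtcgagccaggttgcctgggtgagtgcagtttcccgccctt
Oasl2, chr5:114896684-114896933, plus strand: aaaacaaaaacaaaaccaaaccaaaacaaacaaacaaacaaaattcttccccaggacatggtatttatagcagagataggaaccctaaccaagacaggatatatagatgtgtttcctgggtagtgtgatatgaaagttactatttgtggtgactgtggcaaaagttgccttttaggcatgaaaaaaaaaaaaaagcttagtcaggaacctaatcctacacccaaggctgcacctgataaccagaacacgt
A match describes these letters in this window and is not a measured binding site. *Gbp3* has 2 overlapping cores, 44 and 38 bases before its start. Second annotated starts of *Gbp3* and *Ifit2* have no match upstream and are not shown.

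Smaller differences were seen in 2 abundant members. *Parp14*, an ADP-ribosyltransferase, had 52.0, 58.7 and 76.2 CPM in sgInert, 62.8, 79.1 and 101 CPM in sgCebpa/b/d, and 57.2, 68.5, 75.2, 66.4 and 58.8 CPM in the sgLkb1 libraries. It rose by a log2 fold change of 0.36 (SE 0.11, adjusted p = 0.043) in sgCebpa/b/d and was at 0.04 (SE 0.12) in sgLkb1, and the call held in 7 of the 19 fits without 1 library (0.30 to 0.42) but not with the libraries of 1 number summed (0.28, adjusted p = 0.197). *Samd9l* had 114, 156 and 214 CPM in sgInert, 139, 180 and 202 CPM in sgCebpa/b/d, and 116, 132, 143, 119 and 113 CPM in the sgLkb1 libraries. It was called between the 2 targeted groups (log2 fold change 0.48, SE 0.13, adjusted p = 0.0256), but not when sgLkb1 replicate 1, 4 or 5 or sgCebpa/b/d replicate 3 or 4 was left out (0.44 to 0.47), and its values against sgInert were 0.13 (SE 0.12) in sgCebpa/b/d and -0.36 (SE 0.13, adjusted p = 0.11) in sgLkb1. The partner genes *Parp9* and *Dtx3l*, which act as a complex, the guanylate-binding proteins *Gbp2* and *Gbp3*, and *Psmb10*, a subunit of the immunoproteasome, passed in neither group. Between the targeted groups, *Parp14* was next by p (log2 fold change 0.32, SE 0.12, adjusted p = 0.152) and did not pass, followed by *Ifi44* and *Ifih1*. *Ifi44*, an interferon-induced protein with a GTP-binding fold, had 0.729, 2.52 and 7.45 CPM in sgInert, 0, 6.86 and 29.2 CPM in sgCebpa/b/d, and 2.88, 4.23, 9.1, 0.0983 and 0.437 CPM in the sgLkb1 libraries. *Ifih1* had 70.6, 87.2 and 120 CPM in sgInert, 82.2, 98.5 and 117 CPM in sgCebpa/b/d, and 78.2, 95.8, 86.8, 88.7 and 63.4 CPM in the sgLkb1 libraries. Neither passed (log2 fold change 1.98, SE 0.90, adjusted p = 0.24, and 0.26, SE 0.13, adjusted p = 0.289).

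Within the targeted groups, the levels of many members went with the number in the library title. *Ifi44* was at 23.2, 24.1 and 29.2 CPM in the 3 MT1205 libraries and at 5.82, 0, 3.55 and 6.86 CPM in the other 4 sgCebpa/b/d libraries (replicates 2, 5, 6 and 7). *Rtp4*, a receptor transport protein that is also an interferon effector, was at 21.4, 25.1 and 28.3 CPM against 7.97, 1.92, 2.71 and 2.84 CPM. *Oasl2* was at 23.2, 25.9 and 29.7 CPM in MT1205 and at 5.52, 5.91, 9.81 and 1.84 CPM in the others. For these genes every MT1205 library was above every other library of the group. *Ifi27* was at 64.1, 56.7 and 72.7 CPM against 23.9, 19.2, 23.7 and 20.4 CPM, and *Lgals3bp* at 86.2, 80.9 and 82.2 CPM against 41.0, 23.2, 37.7 and 20.6 CPM. *Ifit1*, an IFIT protein that binds viral RNA, was at 7.24, 9.40 and 8.47 CPM against 3.58, 0.481, 2.88 and 0.167 CPM. MT1203, the remaining numbered library of the group (replicate 2), is female as those of MT1205 are.

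**Figure D2:**
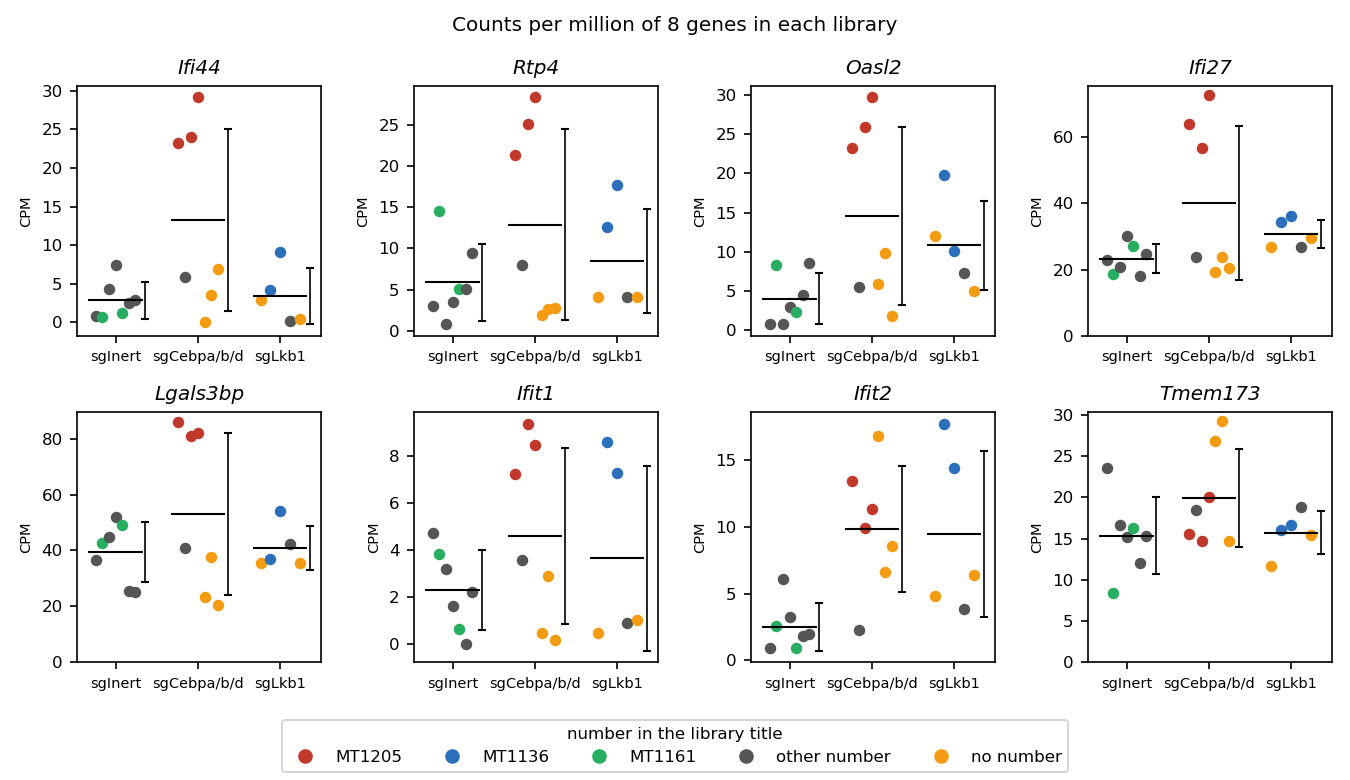
CPM (y axis, linear) of 8 genes in each library, by virus group (x axis), colored by the number in the library title; lines are group means and bars their SD (n = 7, 7 and 5). The 3 MT1205 libraries (red) had 21.4 to 28.3 CPM of *Rtp4* and 23.2 to 29.2 CPM of *Ifi44*, above every other library shown, while for *Tmem173* they lay among the others.

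Over all members, the 3 MT1205 libraries lay above all 4 other sgCebpa/b/d libraries for 16 of 31 (51.6%) and below them for 0. Over all 13986 genes tested, 6.39% lay above and 6.74% below in the same split. The 16 were *Ifih1*, *Eif2ak2*, *Irf9*, *Isg15*, *Ifit1*, *Oasl2*, *Bst2*, *Samd9l*, *Xaf1*, *Rtp4*, *Ifi27*, *Ifi35*, *Ifi44*, *Lgals3bp*, *Parp9* and *Parp14*. The mean log2 CPM of MT1205 minus that of the other 4 libraries had a median over members of 0.71, up to 3.23 for *Ifi44*, with 25 of 31 positive, while the median over all genes was 0.0009. *Tmem173* (-0.37), *Irf1* (-0.64), *Gbp2* (-0.48) and *Gbp3* (-0.49) were on the other side of 0. The splits by title number were looked at after the values of these genes had been seen, and libraries that share a number may come from 1 animal, so that no test of them was made.

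Among the sgLkb1 libraries, both MT1136 libraries lay above the other 3 for 14 of 31 members (45.2%), where 11.3% of all genes did, and below them for 1 (*Gbp2*), where 11.1% of all genes did. *Ifit1* was at 8.62 and 7.28 CPM in MT1136 and at 0.462, 0.885 and 1.02 CPM in replicates 1, 4 and 5. *Rtp4* was at 12.5 and 17.7 CPM against 4.15, 4.13 and 4.08 CPM, *Ifit2* at 17.7 and 14.4 CPM against 4.85, 3.83 and 6.41 CPM, and *Isg15* at 2.98 and 4.25 CPM against 0.115, 1.08 and 0.728 CPM. MT1139, the other numbered sgLkb1 library (replicate 4), was thus with the unnumbered ones for these genes. Of the members that lay above in each split, 8 were shared (50% of the 16 and 57.1% of the 14), namely *Ifi27*, *Ifi44*, *Ifit1*, *Isg15*, *Parp14*, *Rtp4*, *Samd9l* and *Xaf1*. Over all genes, 163 were shared (18.2% of the 894 of MT1205 and 10.3% of the 1577 of MT1136). In sgInert, both MT1161 libraries lay above the other 5 for 0 of 31 members and below for 1 (*Bst2*, tetherin), where 6.81% and 5.52% of all genes did. There, *Rtp4* was at 14.6 and 5.03 CPM in the 2 libraries of this number, and at 0.795 to 9.50 CPM in the other 5. The ISRE core shown above was in the promoters of 7 of the 12 members with a promoter that lay above in MT1205. It was in those of 6 of the 12 other members, among them *Rsad2*, which was not tested and so not part of the split. Of the genes with 3 cores, *Ifit1* and *Isg15* lay above in both MT1205 and MT1136 and *Ifit3* in MT1136, and of those with 2 cores before the start, *Bst2* lay above in MT1205 and *Gbp3* in neither.

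**Figure D3:**
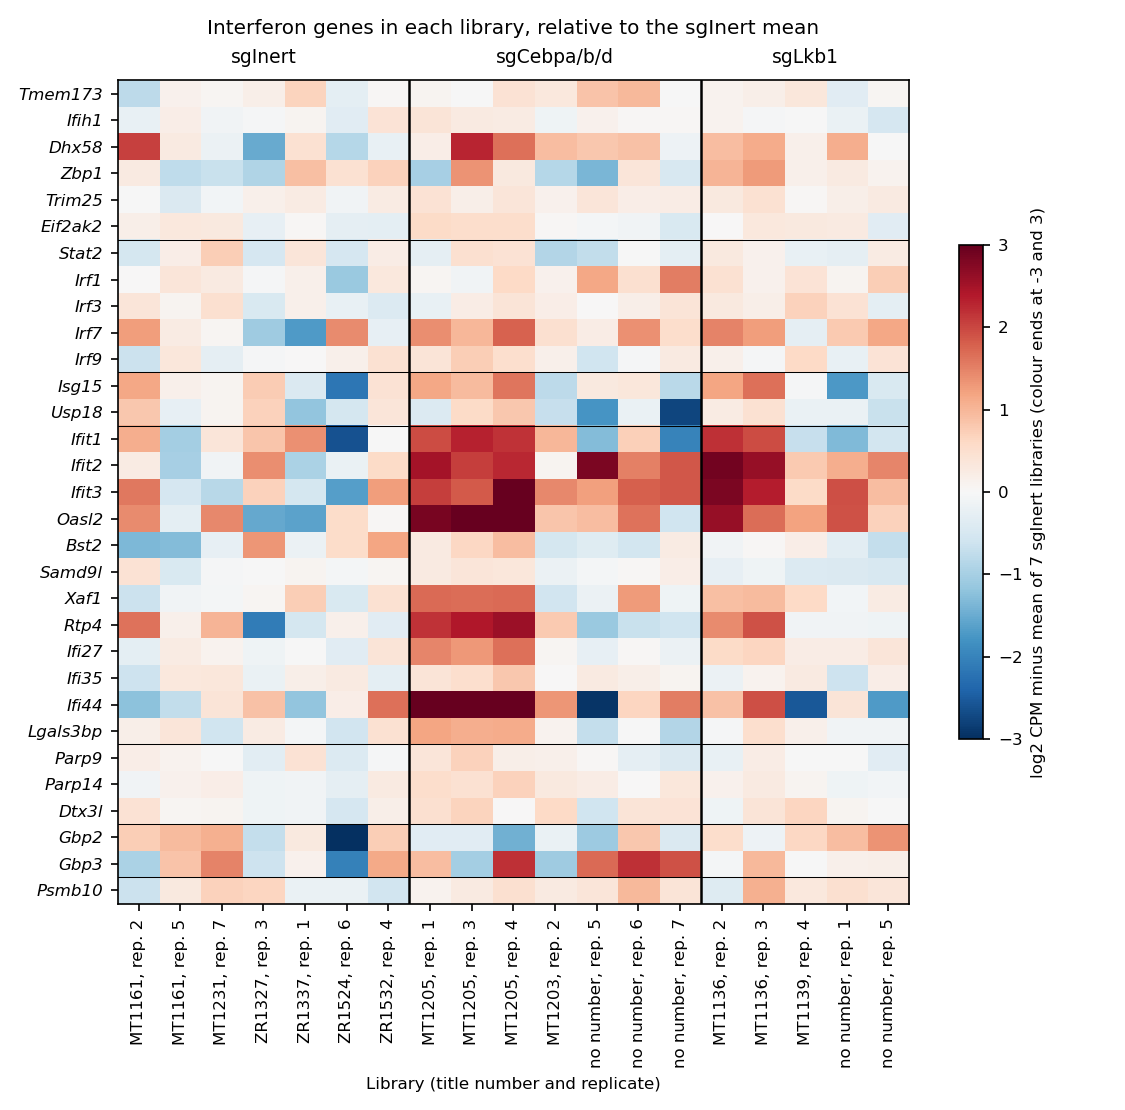
Log2 CPM minus the mean of the 7 sgInert libraries (color, scale from -3 to 3) of the 31 tested genes (rows, in order of role) in each of the 19 libraries (columns, by virus group and title number). Among the antiviral effectors *Ifit1*, *Rtp4* and *Ifi27* are above the sgInert mean in the 3 MT1205 and the 2 MT1136 columns, while *Ifit2* and *Ifit3* are also above it in the unnumbered libraries.

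Leaving out the libraries of these numbers, an alternative added after the data were seen, changed the comparisons with sgInert. Without MT1205 the median log2 fold change of the members in sgCebpa/b/d fell from 0.37 to 0.05, with 16 of 30 positive, and the members called were *Ifit2* (1.80, SE 0.56, adjusted p = 0.0466) and *Irf1* (0.87, SE 0.26, adjusted p = 0.0369). Of all 14215 genes in that fit, 10.3% were called. *Oasl2* went from 1.83 to 0.51 (adjusted p = 0.652), *Parp14* from 0.36 to 0.21 (adjusted p = 0.338), *Ifi44* from 2.25 to 0.55, *Rtp4* from 1.10 to -0.60 and *Ifit1* from 0.98 to -0.35. Without MT1136 the median in sgLkb1 went from 0.26 to 0.01, with 17 of 31 positive, and *Ifit2*, the one member called with all libraries, was then at 1.04 (SE 0.53, adjusted p = 0.377). Between the targeted groups, *Samd9l* was at 0.34 (adjusted p = 0.205) without MT1205, and the median of the members went from 0.26 to -0.19. Without MT1136 that median was 0.41, with 26 of 31 positive and 1 called, where 2.94% of all genes were called. *Ifit2* in sgCebpa/b/d was called under each of 12 other settings of the processing or the model (log2 fold change 1.23 to 2.6) and with each of the 19 libraries left out in turn (1.81 to 2.37).

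**Figure D4:**
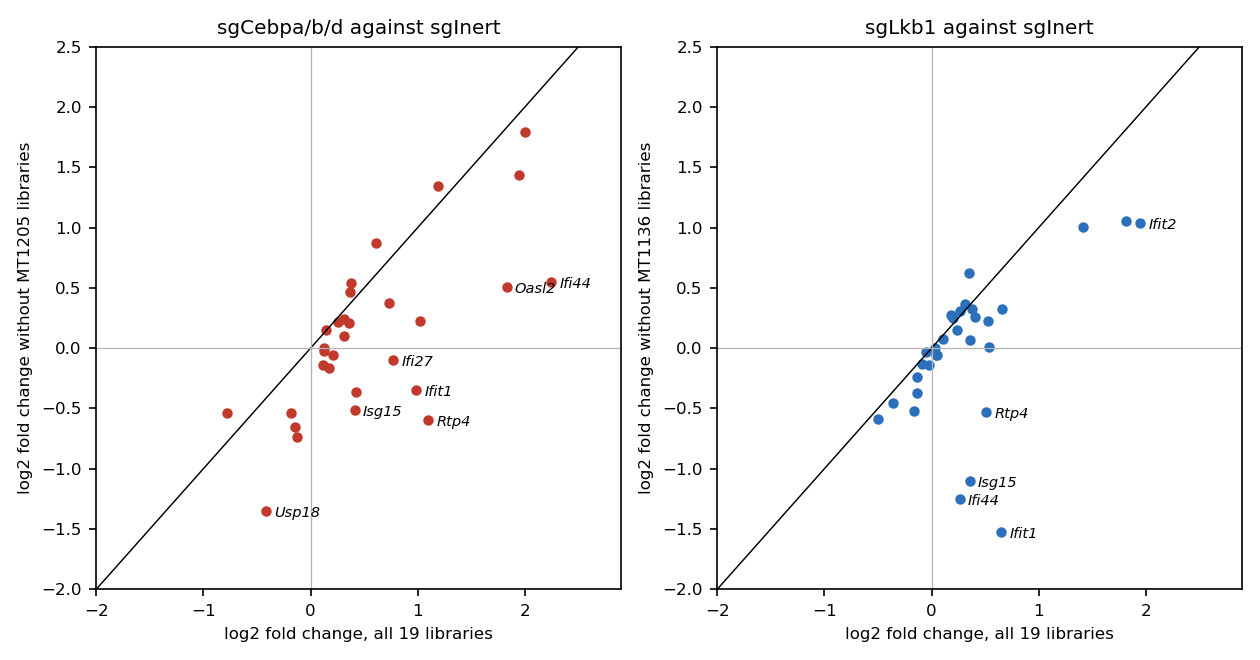
Log2 fold change against sgInert without the libraries of 1 title number (y axis) against that with all 19 libraries (x axis), for each gene tested in both fits, for sgCebpa/b/d without MT1205 (left, 30 genes) and sgLkb1 without MT1136 (right, 31 genes); the diagonal marks equal values. *Ifi44* moved from 2.25 to 0.55 and *Rtp4* from 1.10 to -0.60 on the left, and *Ifit1* from 0.65 to -1.52 on the right.

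Immune markers were low in the MT1205 and MT1136 libraries, as in the other libraries with an MT number. Their summed level was 13.4 to 23.3 CPM in the MT-numbered sgInert libraries, 22.3 CPM in MT1203 and 19.5 CPM in MT1139. *Ptprc* was at 0, 0.495 and 1.86 CPM in the MT1205 libraries and at 0.784 and 0.91 CPM in the MT1136 libraries. The 19 immune markers summed to 18.1 to 18.8 CPM in MT1205, with 11 of the 19 at 0 in all 3 libraries, and to 97.0 to 103 CPM in the unnumbered sgCebpa/b/d libraries. The median member stood at 0.44, 0.67 and 0.80 above the sgInert mean (log2 CPM) in MT1205 and at 0.28 and 0.47 in MT1136. It was at 0.01, 0.35 and 0.04 in the unnumbered sgCebpa/b/d libraries and at 0.07 and 0.07 in the unnumbered sgLkb1 libraries. MT1203 was at 0.12 and MT1139 at 0.15, and the single sgInert libraries ran from -0.28 to 0.28. Fibroblast markers summed to 109 to 204 CPM in MT1205 and to 58.7 to 264 CPM in the other 4 libraries, and endothelial markers to 21.9 to 43.7 CPM and 58.8 to 297 CPM.

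**Figure D5:**
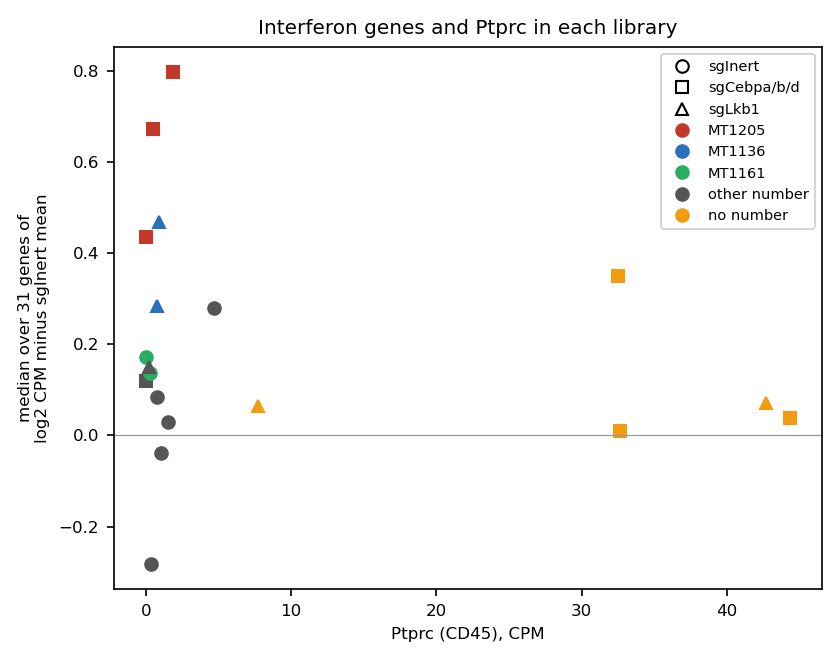
Median over the 31 tested genes of log2 CPM minus the sgInert mean (y axis) against *Ptprc* CPM (x axis) in each of the 19 libraries, by virus group (shape) and title number (color). The MT1205 libraries lie at 0.44 to 0.80 with at most 1.86 CPM of *Ptprc*, and the unnumbered libraries at 7.72 to 44.3 CPM of *Ptprc* lie at 0.01 to 0.35.

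Title series were then compared directly. In the targeted groups together, with the virus as a covariate, 3 of 30 members were lower in the 5 libraries without a number than in the 7 with an MT number, and none was higher, where 1.81% of 13481 genes were lower and 3.39% higher. These were *Rtp4* (log2 fold change -2.33, SE 0.43, adjusted p = 0.00413), *Ifit1* (-2.72, SE 0.64, adjusted p = 0.021) and *Lgals3bp* (-0.95, SE 0.24, adjusted p = 0.0284). Of 30 members, 25 were negative, with a median of -0.36. None of the 3 was called without MT1205 (*Rtp4* -1.56, adjusted p = 0.128) or in the sgLkb1 libraries alone, which are all female (*Rtp4* -1.47, adjusted p = 0.517). Of all genes, 1.25% were called without MT1205 and 0.481% in the sgLkb1 libraries alone. Among the sgInert libraries, 0 of 28 members were called by edgeR or by DESeq2 between the 3 MT and the 4 ZR libraries. Of 12791 genes, 0.117% were called by edgeR and 2.72% by DESeq2. In edgeR 3 members had an unadjusted p under 0.05, as did 1534 of the 12791 genes.

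A wider list of 124 other genes of interferon signaling and nucleic acid sensing placed these values in the pathway. Of 93 tested, 11 were higher and 1 lower in sgCebpa/b/d against sgInert (median log2 fold change 0.27), where 4.73% of all genes were higher and 5.36% lower. Without MT1205 6 were higher and 4 lower of 97 (median 0.13), and 5 were higher with gene length offsets, with limma or with the libraries of 1 number summed. Of all genes, 10.3% were called in either direction without MT1205, 8.83% with the offsets, 7.46% with limma and 8.35% with libraries summed. In sgLkb1 2 were higher and 1 lower (median 0.09), where 2.81% and 2.97% of all genes were. With limma 6 were higher there. With sex as a covariate, a fit with the limit given above, 4 were higher and 4 lower (median -0.04). Over all genes, 6.66% were called in either direction with limma and 8.99% with sex as a covariate. *Ifitm3*, a membrane protein that blocks virus entry, was at 4.77, 7.06 and 10.3 CPM (lowest, median and highest) in sgInert, at 13.9, 31.5 and 48.1 CPM in sgCebpa/b/d and at 16.5, 31.2 and 38.9 CPM in sgLkb1. Every library of both targeted groups was thus above every sgInert library. Its log2 fold changes were 2.01 (SE 0.26, adjusted p = 2.1e-05) and 2.03 (SE 0.28, adjusted p = 9.72e-05), and they were 1.67 (adjusted p = 0.000694) without MT1205 and 1.90 (adjusted p = 0.0022) without MT1136. *Ifi203*, of the DNA-binding IFI200 family whose genes are near copies of one another, rose by 2.81 (SE 0.57, adjusted p = 0.00223) and 2.16 (SE 0.60, adjusted p = 0.0335), and its highest level, 40.1 CPM, was in an unnumbered sgCebpa/b/d library. Without the unnumbered libraries it was not called (1.71, adjusted p = 0.0631, and 1.54, adjusted p = 0.157).

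In sgCebpa/b/d, *Iigp1* (log2 fold change 2.05, adjusted p = 0.00482) and *Irgm2* (1.08, adjusted p = 0.0129), both immunity-related GTPases, *Gbp9* (2.21, adjusted p = 0.0321), a guanylate-binding protein, and *Trim30a* (1.56, adjusted p = 0.036) also rose. Without MT1205 *Trim30a* (0.73, adjusted p = 0.418), *Irgm2* (0.85, adjusted p = 0.112) and *Iigp1* (1.60, adjusted p = 0.051) were not called, and without the unnumbered libraries *Gbp9* was at -0.10 (adjusted p = 0.947).

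Few reads came from interferon genes, and the receptor genes and *Cgas* named here did not pass the test. *Ifnb1*, the main type I interferon gene of epithelial cells, had 0 counts in all 19 libraries, which allows up to 0.302 to 1.09 CPM in a library (3 counts of its total). *Ifna1*, *Ifna4*, *Ifng*, *Ifne*, *Ifnl2* and *Ifnl3* were also at 0 in all 19, and *Ifna2* in 18. *Ifnk*, an interferon of keratinocytes, had counts in all but 3 libraries, at most 14 in a library, which was too few for it to be tested. *Ifnar1*, a chain of the type I receptor, had log2 fold changes of -0.17 (SE 0.11, adjusted p = 0.378) in sgCebpa/b/d and 0.003 (SE 0.12, adjusted p = 0.995) in sgLkb1. *Ifngr1*, a chain of the interferon gamma receptor, had 0.41 (SE 0.15, adjusted p = 0.0953) and 0.10 (SE 0.17, adjusted p = 0.833). *Cgas*, listed as *Mb21d1*, had 0.69 (SE 0.61, adjusted p = 0.558) and 0.34 (SE 0.66, adjusted p = 0.852), on 0 to 31 counts in a library. It was at 2.53 to 4.29 CPM in the MT1205 libraries and at 0.508 to 2.51 CPM in the other 4 sgCebpa/b/d libraries. The 2 ranges nearly met, on few counts. In this split 17.2% of the tested genes of the wider list and 6.39% of all genes lay above.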

How the data were processed

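RNA-seq libraries of sorted neoplastic cells were made by the authors with the Trio RNA-Seq kit, aligned with STAR 2.6.1d to mm10 and quantified with RSEM 1.2.30. The deposited expected counts are RSEM estimates per gene without normalization. TPM, as deposited, come from the same RSEM run and correct for transcript length. Tables of the series as a whole, which hold the authors' normalized values, log2 fold changes and p-values from DESeq2 1.26.0, were not used.

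The expected counts were rounded for the count models, after a filter on low genes with filterByExpr at a minimum count of 10 and a minimum total of 15. All 19 libraries entered 1 model of the virus group without covariates, with TMM normalization and the quasi-likelihood test of edgeR 4.0.16 (R 4.3.3), and p-values were adjusted by Benjamini and Hochberg over all genes tested. Every adjusted p in the text is from this test unless another is named. Genes were called at an adjusted p under 0.05. Title series were compared within the targeted groups, with the virus as a covariate, and within sgInert. CPM were scaled by TMM, and log2 CPM used a prior count of 2. limma 3.58.1 on log2(TPM + 1) and DESeq2 1.42.0 were alternatives. Tables and figures were made with Python 3.11.15. Groups, sexes and title numbers were taken from the labels, which do not say what a title number is. The members and the gene lists were chosen with earlier results of these data known. Members named with library values are the 4 with the smallest p in each virus comparison and *Tmem173*, genes of the wider list are those called with an absolute log2 fold change above 1 (at most 6 by p in each comparison) with *Cgas*, *Ifnb1*, *Ifnar1* and *Ifngr1* (a further gene of this rule is not reported here), and all others were named after their values were seen. Two-sided tests were used throughout. The procedure was tested on simulated data. No library was a copy of another, as replicates differed in all 52 pairs by a chi-square of 6.67 to 73.7 per gene. Nothing says that libraries with one title number came from separate animals, and p-values measure the spread between libraries, while the counting intervals cover counting error only. Total counts of 2760731 to 9944134 per library limit the precision of genes with few counts. Same-numbered replicates of different groups had correlated deviations of -0.36 to 0.36, so that the numbers do not pair the libraries. Gene coordinates are from GENCODE on GRCm38 (mm10), and promoters from RefSeq on GRCm38.p6.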

Additional observations from a re-analysis of the deposited data

Results flagged for a closer look

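In 5 of 93 checks of a member within a virus group, the highest or lowest library lay far from the others. Chance alone gives about 1 in 20 such groups, and the values are given with no explanation. *Irf1* was lowest in sgInert replicate 6, with a log2 CPM of 3.61 (11.9 CPM, next 25.4 CPM). *Gbp2* was lowest in the same library, with a log2 CPM of -1.63 (0 CPM, next 1.33 CPM). *Ifit3* was highest in sgCebpa/b/d replicate 4, an MT1205 library, with a log2 CPM of 3.27 (9.32 CPM, next 3.98 CPM). *Gbp3* was highest in sgLkb1 replicate 3, an MT1136 library, with a log2 CPM of 1.38 (2.28 CPM, next 1.17 CPM). *Psmb10* was highest in sgCebpa/b/d replicate 6, with a log2 CPM of 3.39 (10.2 CPM, next 7.12 CPM).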

How the results depend on the processing

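The number of members called depended on the setting. In sgCebpa/b/d against sgInert 3 were called, and 5 with DESeq2, 6 with the immune marker level as covariate, 1 with the libraries of 1 title number summed, 1 with these groups fitted alone and 8 without the unnumbered libraries. Over all genes the share called was 10.1% in the main fit, 13% with DESeq2 and 9.73% with the immune marker level. It was 8.35% with libraries summed, 8.82% with these groups alone and 6.26% without the unnumbered libraries. In sgLkb1 against sgInert 1 was called, and 2 with limma on log2(TPM + 1), 2 with the immune marker level as covariate, 0 with the libraries of 1 title number summed, 0 with the replicate block and 0 without MT1136. Here 5.78% of all genes were called in the main fit, 6.66% with limma and 6.06% with the immune marker level. With libraries summed it was 3.75%, with the replicate block 6.24% and without MT1136 3.18%. In sgCebpa/b/d against sgLkb1 1 was called, and 2 with sex as covariate, but 0 with no filter on low counts, 0 with gene length offsets, 0 with limma, 0 in the MT libraries alone, 0 without MT1205 and 0 without the unnumbered libraries. For all genes the share was 5.96% in the main fit, 6.41% with sex, 2.55% with no filter and 4.69% with gene length offsets. It was 6.91% with limma, 6.98% in the MT libraries, 4.12% without MT1205 and 3.23% without the unnumbered libraries. Between unnumbered and MT libraries 3 were called, and 6 with DESeq2, 10 with no filter, 7 in the sgCebpa/b/d libraries alone, 1 with libraries of 1 title number summed, and 0 with sex as covariate, 0 with the immune marker level as covariate, 0 in the sgLkb1 libraries alone and 0 without MT1205. Of all genes, 5.2% were called there in the main fit, 8.86% with DESeq2, 6.73% with no filter and 11.4% in sgCebpa/b/d alone. The share was 2.09% with libraries summed, 0.608% with sex, 0% with the immune marker level, 0.481% in sgLkb1 alone and 1.25% without MT1205. Where so few genes were called at all, a count of 0 members carries little information. With 1 library left out in turn the counts were 1 to 6, 0 to 2, 0 to 1 and 1 to 6, and 0 to 0 for the MT and ZR libraries of sgInert. The cause of these changes was not tested.

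With the replicate block, 3 members were called in sgCebpa/b/d, where 9.24% of all genes were, and *Ifit2* in sgLkb1 was at 1.80 (adjusted p = 0.076). *Tmem173* in sgLkb1 (0.04) was at -0.0026 with the immune marker level as covariate and at -0.033 with libraries of 1 title number summed, and at -0.071 to 0.17 with 1 library left out. limma moved the median of all genes to 0.18 in sgLkb1 and to -0.15 between the targeted groups, where the members stood at 0.31 and 6.6e-05. All genes called in sgCebpa/b/d numbered 881 to 1819, against 1412. Leaving out MT1205, MT1136 or the unnumbered libraries was chosen after seeing the data. *Isg15*, *Usp18* and *Cgas* had at most 32 counts in a library.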

Other observations

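Of 12 interferon-inducible GTPases outside the 33 genes that were tested between the unnumbered and the MT libraries of the targeted groups, 6 were positive and 6 negative (median log2 fold change -0.10), 3 were called higher and none lower. In this comparison 3.39% of 13481 genes were called higher and 1.81% lower. *Gbp6* (-1.43, adjusted p = 0.0859), *Igtp* (-0.94, adjusted p = 0.169) and *Ifi47* (-0.72, adjusted p = 0.126) did not pass, and lay above in every MT1205 library of sgCebpa/b/d. In that split 16 of 93 genes of the wider list lay above (17.2%) and 5 below (5.38%), *Gbp9* among the latter. Of all genes, 6.39% lay above and 6.74% below. The 3 GTPases called higher are named here after their values were seen. *Gbp9*, a guanylate-binding protein, was at 29.4 to 37.7 CPM in the 3 unnumbered sgCebpa/b/d libraries and at 1.81 to 4.90 CPM in the 4 numbered ones. *Gbp4* was at 6.39 to 11.0 CPM against 0.511 to 1.32 CPM, and *Tgtp2* at 5.25 to 16.4 CPM against 0.409 to 2.37 CPM. In the 2 unnumbered sgLkb1 libraries *Gbp9* was at 7.15 and 22.7 CPM, against 3.64 to 9.09 CPM in the numbered ones. Across both targeted groups the unnumbered libraries were higher by 2.42 (SE 0.42, adjusted p = 0.00264) for *Gbp9*, 2.38 (SE 0.49, adjusted p = 0.00924) for *Gbp4* and 2.70 (SE 0.52, adjusted p = 0.00574) for *Tgtp2* on the log2 scale, where *Rtp4* and *Ifit1* were lower. These libraries are those with *Ptprc* at 7.72 to 44.3 CPM, and the part of immune cells in these values was not tested. *Oas1a* (-4.33, SE 0.76, adjusted p = 0.0027) and *Oas3* (-4.45, SE 1.17, adjusted p = 0.0364), oligoadenylate synthetases that activate RNase L, were lower there. *Oas3* was at 7.6, 16.3 and 17.5 CPM in the MT1205 libraries (from lowest to highest) and at most 0.335 CPM in the other 4 sgCebpa/b/d libraries.

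The effect of the sgCebpa/b/d virus against sgInert was compared between the sexes by an interaction term. It passed for 21 of 12500 genes and for 0 of 29 members, of which the lowest adjusted p was 0.241. In sgCebpa/b/d all males are unnumbered libraries and all females numbered ones, so that this term cannot tell sex from title series.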
